A study of Mus musculus with 6 samples.

Results

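The probes described here are the lincRNA probes of a mouse LncRNA microarray that carry the GenBank style accession of an expressed sequence tag (EST) or cDNA as their name. They were chosen by name alone: a non-control probe whose name is 1 or 2 capital letters and then digits, before the suffix that the array's maker adds. The rule found 1209 of the 59729 probes, under 45 different letter prefixes, and each was printed as 1 spot. These 1209 probes are called members in the text. No measured value enters this rule.

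The study compared acute heart failure (HF) with control in heart tissue, whole blood and plasma of male C57BL/6J mice. For HF, isoproterenol, an agonist of β-adrenergic receptors, was injected under the skin over 1 week at a dose of 40 mg/kg/day. Control mice were given saline, 0.2 mL/day. Each of the 6 groups is 1 array with a mixture of RNA, given in the study's microarray methods as from 5 mice, and the plasma extraction is described there as from more mice. Blood was taken by removal of the eyeballs, and plasma was filtered before extraction. rRNA was removed and cRNA was made by random priming. No condition has a second array, so HF over control within a tissue has no replicate check, and no test was made of it. The only error given for such a change is the spot error of the scanner software, combined over both arrays on the log2 scale, which leaves out the spread between mice and between preparations. In whole tissue RNA, fewer cells of a type and less RNA per cell cannot be told apart.

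An EST is a single-pass read from one end of a cloned cDNA, and a cDNA record is a longer, usually full insert sequence. Both show that a transcript was once cloned from some tissue, often at low abundance, and neither shows that it encodes a protein. Long intergenic noncoding RNAs (lincRNAs) are transcribed between protein-coding genes, and as a class they are known for low levels and for expression restricted to few tissues. The letters of the accession tell the source: AV, BB and BY are ESTs of the RIKEN collection in DDBJ, AK is the RIKEN full-length cDNA set, BC is a full-length cDNA set of the Mammalian Gene Collection, and AA, AI, AW, CA, CF and CK, among others, are GenBank ESTs. The probe sequences were not used here, so members are identified by accession. For 208 of them there is also a position, read as mm9, in the study's lists of LncRNAs changed in HF.

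The HF marker gene was brighter in HF heart and HF whole blood than in control. Nppb, which encodes the natriuretic peptide BNP and is a marker of HF, had log2 levels of 13.33 in control heart and 16.03 in HF heart. Both control blood samples showed no Nppb signal above background, while HF whole blood was at 12.18 and HF plasma at 6.29, the latter below the brightest negative control probe of that array (7.41). Gapdh lay at 14.72 and 13.65 in control and HF heart, 8.86 and 11.19 in control and HF whole blood, and 8.55 and 8.95 in control and HF plasma. The file headers give 2 scan times: both heart arrays and both HF blood arrays share the first, and the control whole blood and control plasma arrays share the second. In blood, HF and scan therefore cannot be told apart, while both hearts were scanned together. Each array holds 20 negative control probes of 60 spots each. Of their 1200 spots, between 0.5% (HF heart) and 4.33% (control plasma) were marked well above background on 5 of the arrays, against 12.4% on HF plasma, where 2 of the 20 probes were marked on most of their spots. On control whole blood 30411 of 61194 spots, and on HF plasma 25588, share the array's 1 lowest signal, against 1 spot on each other array, so levels at background there have no order.

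More members lacked a signal on every array than had one. A member counts as detected on an array if the scanner software flagged its spot well above background without an outlier flag. Of the 1209 members, 553 (45.7%) were detected on at least 1 array, against 60.1% of all probes, and 656 (54.3%) on none. Another 129 members (10.7%) were detected on all 6 arrays, close to the 12.6% of all probes. The rest lay between, with 151 detected on 1 array, 93 on 2, 58 on 3, 51 on 4 and 71 on 5.

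Control heart had the most detected members, 386 or 31.9% (95% Wilson interval 29.4 to 34.6%), and HF heart had 253 or 20.9% (18.7 to 23.3%). In whole blood the count was 243 (20.1%) in control and 302 (25%) in HF. Both plasma arrays had 330 (27.3%). These intervals cover counting over probes only and not the spread between arrays. Against all probes the members were detected less often in heart, where all probes reached 47.3% and 35.1%. In blood the shares lay nearer: all probes reached 25% and 29.8% in whole blood, and 33.5% and 29.0% in plasma. When a detected member also had to exceed the 99th percentile of the negative control spots, the count in HF plasma became 147, while control plasma kept 263, control whole blood 213 and control heart 361, and the other arrays did not change. An outlier flag took out 7 members on control whole blood, 10 on control plasma and 5 on HF plasma.

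**Figure D1:**
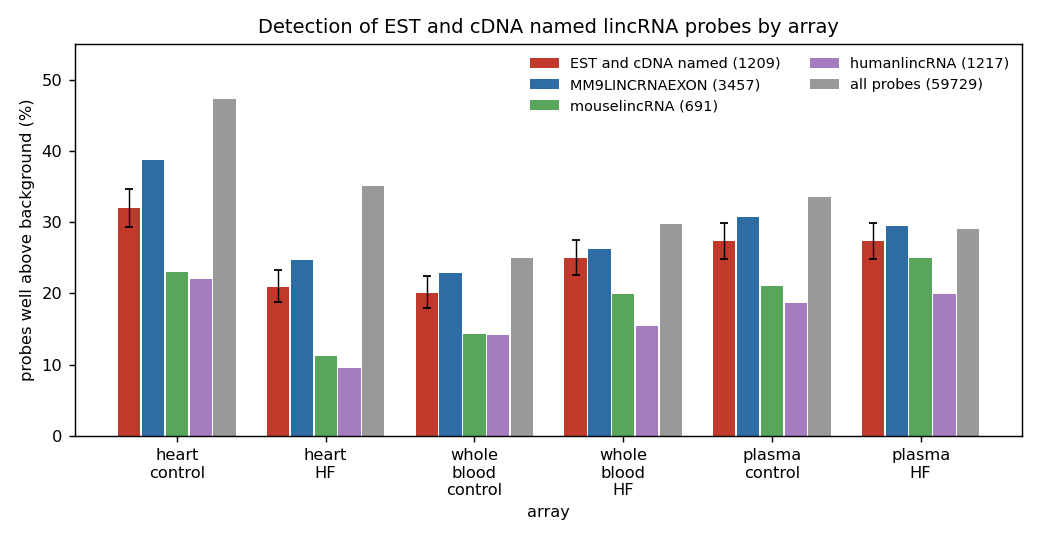
Percent of probes well above background (y axis) on each of the 6 arrays (x axis) for the 1209 EST and cDNA named probes, 3 other lincRNA probe classes of the array and all probes, with the number of probes in the legend. Whiskers on the first bars are 95% Wilson intervals over probes. EST and cDNA named probes reached 31.9% in control heart and stood between 20.1% and 27.3% on the other 5 arrays.

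The other lincRNA probe names of the array are MM9LINCRNAEXON (3457 probes), mouselincRNA (691) and humanlincRNA (1217). Members came second of these 4 classes on every array. In control heart the shares detected were 38.7% for MM9LINCRNAEXON, 31.9% for members, 23.0% for mouselincRNA and 21.9% for humanlincRNA. In HF plasma the 4 classes lay closer, at 29.5%, 27.3%, 24.9% and 20% in the same order. Every class had a lower share in HF heart than in control heart. The lowest level detected for any probe was 3.56 in control heart and 4.72 in HF heart. A dim probe can therefore be lost from HF heart without a fall in level.

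Detection differed with the kind of record. Of the 122 cDNA records (AK, BC and similar letters), 64.8% were detected on at least 1 array, against 47.0% of the 287 DDBJ ESTs, 49.0% of the 49 EMBL records and 41.2% of the 628 GenBank ESTs. These groups follow a fixed list of letters. Another 123 members with letters not on it, CJ and DV among them, had 45.5%, so the groups may be incomplete. The cDNA records were also the ones with the smallest fall in share detected from control to HF heart, from 49.2% to 45.1%, where GenBank ESTs went from 26.8% to 15%. Because the detection limit was higher in HF heart, these shares do not show how far levels fell. Among the 22 prefixes with at least 20 members, AK had the highest share detected somewhere (63.4% of 93) and AU the lowest (30% of 20). Prefix AV had 15 of its 50 members (30%) on all 6 arrays, and prefix CK had none of 54.

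By tissue, with a tissue counted where either of its arrays detected the member, 258 members (21.3%) were seen in all 3 tissues. Members seen in heart alone numbered 82 (6.78%), and this share was 13.7% over all probes. Plasma alone held 81 (6.70%) and whole blood alone 31 (2.56%), where all probes had 6.09% and 1.98%. The remaining members split into 43 seen in heart and plasma, 42 in whole blood and plasma, and 16 in heart and whole blood.

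Tissue preference was read from separated levels: preference for a tissue means that both its arrays detected the member and that the lower of their levels stood at least 2-fold above the highest level on all other arrays. Of the 240 members detected on both heart arrays, 53 (22.1%) preferred heart, against 34.4% of all probes. Of the 157 detected on all 4 blood arrays, 51 (32.5%) stood at least 2-fold above both hearts, against 28.7% of all probes. Whole blood alone was preferred by 2 of 198 members (1.01%, against 0.687%) and plasma alone by 9 of 236 (3.81%, against 1.73%). Both last counts turn on single arrays. Without the control whole blood array, 59 members preferred whole blood and 50 preferred plasma, and without the HF plasma array 17 preferred plasma.

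The 5 heart-preferring members with the widest margin had little or no signal in blood. BC025881 (mm9 chr5:52765890-52766880, minus strand) had log2 levels of 9.20 in control heart and 10.21 in HF heart, was at 5.57 in HF whole blood, and was not above background on the other 3 arrays. BB525166 was at 7.36 and 7.55 in control and HF heart and was not above background on any blood array. U43317, at 7.80 and 7.76 in control and HF heart, was likewise not above background in any blood sample. So were AK053279 (6.85 and 7.04) and AK135967 (6.80 and 6.69). The margins of these 5 members over their highest blood level ran from 11-fold (U43317) to 19.5-fold (BB525166), taking levels at background as measured.

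The blood-preferring members were seen in heart too, at lower levels. CR522072 had 6.06 and 6.04 in control and HF heart, 12.22 and 10.96 in control and HF whole blood, and 12.20 and 11.60 in control and HF plasma. CK384951 had 4.49 in control heart, was not above background in HF heart, and ran from 9.18 to 10.27 over the 4 blood arrays. BY681952 kept nearly 1 level in blood, from 8.81 to 9.56, against 3.79 in control heart and no signal above background in HF heart. The margin of CR522072 over heart was 29.9-fold and that of CK384951 over its level in control heart 25.9-fold. BY681952 had a margin of 26.2-fold, taken over its HF heart level at background.

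AK040636 and BY733216 also preferred blood but were less even within it. AK040636 had 7.14 and 6.23 in control and HF heart, 13.40 and 10.73 in control and HF whole blood, and 12.62 and 16.90 in control and HF plasma. Its lowest blood level was thus the HF whole blood and its highest the HF plasma. BY733216 had 7.80 and 6.94 in heart, 12.50 and 11.53 in whole blood, and 12.18 and 14.19 in plasma, each in the order control and HF.

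Plasma-preferring members were mostly seen in plasma alone. CJ133294 (mm9 chr13:104802344-104802960, minus strand) was at 5.14 in control plasma and 10.57 in HF plasma and not above background elsewhere. AA791803 was at 5.85 and 8.72, BY618597 at 5.13 and 6.04, and DT905422 at 4.86 and 5.73 in control and HF plasma, and none of these 3 was above background in heart or whole blood. CA585643 differed from them in being bright on every array: 11.82 and 10.08 in heart, 12.64 and 12.70 in whole blood, and 14.33 and 15.12 in plasma, each in the order control and HF. The levels of BY618597 and DT905422 lie below the brightest negative control probe on both plasma arrays (5.17 in control and 7.41 in HF). CJ133294 in control plasma is below it too. Apart from CA585643, these members lie near the lowest levels the arrays detect in control plasma, where the lowest detected level of any probe was 4.64.

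Whole blood preference was found for AK030313 and AA691040 only. AK030313 had 11.47 and 10.19 in control and HF whole blood, 7.52 and 7.01 in control and HF plasma, 4.66 in control heart, and was not above background in HF heart. AA691040 had 5.88 and 5.44 in control and HF whole blood and was not above background in heart and plasma.

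**Figure D2:**
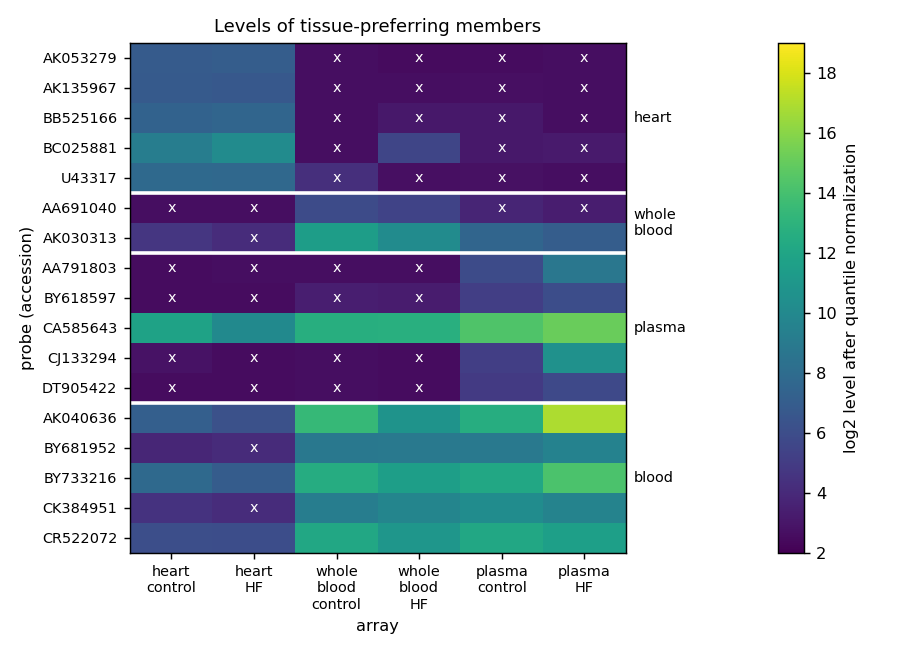
Log2 level after quantile normalization (colour) of the members with the widest margin of preference for heart, whole blood, plasma or blood as a whole (rows) on the 6 arrays (columns). A white x marks a spot not above background. Heart-preferring members are at background on nearly all blood arrays, while blood-preferring members keep a lower signal in at least 1 heart.

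A linear model over the 6 arrays, with tissue and condition as terms (limma, Benjamini-Hochberg over the 35893 probes detected on at least 1 array), tested the tissue differences. Its spread is how unevenly HF and control differ between tissues, with 2 residual degrees of freedom, and 553 members entered it. Between heart and plasma 27 of the 553 passed an adjusted p of 0.05, 14 higher and 13 lower in heart, against 5.57% (higher) and 1.21% (lower) of all probes. Their adjusted p ran only from 0.0455 to 0.0489. All 27 kept their sign in the control arrays alone and in the HF arrays alone. That is no separate support, since disagreement between these 2 differences is part of the model's spread and keeps a member from passing. Of the 14 higher in heart, 12 were not above background on at least 1 plasma array, and 6 of the 13 lower ones not on at least 1 heart array, so the fitted differences of these are not measured sizes. Among the lower ones, CF612973, CK375272 and DV653685 had an outlier flag on control plasma. The levels of those spots (10.22, 13.28 and 15.08) were kept in the fit. For CR522072, detected on all 6 arrays, heart minus plasma was -5.85 ± 0.96 log2 units (SE; adjusted p = 0.0455 by limma). The other contrasts gave none. Heart against whole blood had 0 members called by limma, with 121 at an unadjusted p under 0.05 (21.9%, against 28.1% of all probes) and a smallest adjusted p of 0.0815. Plasma against whole blood had 0 called by limma with 15 unadjusted (2.71%, against 2.34% of all probes). The heart and plasma count rested on single arrays and on the scaling: it was 0 without any 1 of 5 arrays, 168 without control plasma, 0 with the scan as a block and 97 with scaling to the 75th percentile.

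HF changes within a tissue are described next. They were called at a difference of at least 2-fold, among members detected on both arrays of the tissue. They were fewest in heart and most frequent in plasma. In heart, 24 of 240 members were higher in HF (10%, against 13.9% of all probes) and 46 lower (19.2%, against 12.9%). In whole blood 48 of 198 were higher (24.2%, against 21.4%) and 53 lower (26.8%, against 26.8%). In plasma 85 of 236 were higher (36.0%, against 32.1%) and 59 lower (25%, against 25.6%). Of the 3 tissues, heart had the widest gap between the members' share of falls and that of all probes.

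That heart split moved with the scaling. Scaled to the 75th percentile, heart had 34 members higher and 41 lower, and with the normexp background correction 3 higher and 26 lower. The split of all probes moved the same way. It was 2789 higher and 2588 lower in the main setting, 3941 and 2407 at the 75th percentile, and 1024 and 1299 with normexp. The median log2 change of members was -0.15 in heart, 0.11 in whole blood and 0.18 in plasma. It turned sign under 75th percentile scaling in heart (0.06) and whole blood (-0.21), a setting that moved the median of all probes from 0.02 to 0.20 in heart, from -0.13 to -0.35 in whole blood and from 0.21 to 0.09 in plasma. Relative to all probes, the members' median was -0.17 in heart and 0.24 in whole blood, and -0.14 and 0.14 under the 75th percentile, so these signs did not depend on that choice. In plasma it was -0.03 and 0.06.

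**Figure D3:**
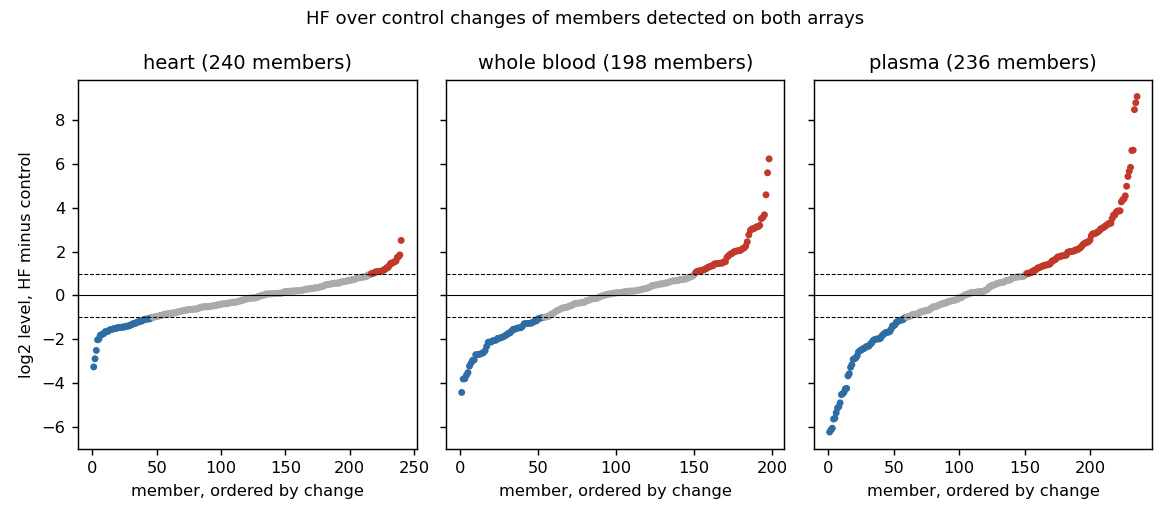
Difference in log2 level, HF minus control (y axis), of each member detected on both arrays of heart (240), whole blood (198) and plasma (236), ordered by its change (x axis). Dashed lines are 2-fold, with members past them in red (higher in HF) and blue (lower). Heart changes ran from -3.27 to 2.51, whole blood from -4.43 to 6.24 and plasma from -6.24 to 9.09.

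In heart the largest falls exceeded the largest rises. With the normexp correction 7 of the 10 folds named for heart, 6 of the 10 for whole blood and 5 of the 10 for plasma moved by over 1.5 times, down to 0.33, 0.47 and 0.28 times their size, with no change of sign. AI552925 (mm9 chr14:34932787-34934042, plus strand) went from 8.40 in control to 5.14 in HF heart, 9.63-fold lower with a spot error of 0.30 log2 units, and was not above background on any blood array. BG792147 went from 9.15 to 6.26 in heart and moved the other way in plasma, from 5.65 to 7.73. In whole blood BG792147 was not above background in control and at 7.24 in HF.

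BG093283 (mm9 chr1:79502407-79502461, plus strand) was lower in HF in every tissue: 7.48 and 4.97 in heart, 8.47 and 5.77 in whole blood, and 9.02 and 6.68 in plasma. The HF heart level of BG093283 is near the lowest detected there for any probe (4.72). Its HF plasma level is below the brightest negative control probe of that array (7.41). AU046282 fell from 8.62 to 6.59 in heart and from 10.84 to 8.13 in whole blood, with 11.14 and 11.26 in control and HF plasma. CO800513 had the same order, 9.43 and 7.44 in heart and 12.71 and 10.83 in whole blood, with 12.70 and 13.28 in plasma. These 5 largest falls were thus not alike in blood.

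The 5 largest rises in heart began from low levels, between 3.97 and 6.74 in control heart. BY300015 (mm9 chr15:36868619-36878787, plus strand) went from 3.97 to 6.49, which is 5.71-fold with a spot error of 0.31 log2 units. AB000619 went from 5.02 to 6.87, AA117544 from 5.56 to 7.33, AW121278 from 5.55 to 7.29 and CA322642 from 6.74 to 8.31. With the normexp correction, which shrinks dim signals, all but CA322642 came to under 2-fold. Of the members detected on all 6 arrays, CA322642 was the only one at least 2-fold higher in HF in every tissue, going from 5.90 to 7.36 in whole blood and from 6.14 to 7.40 in plasma. Its HF plasma level lies just below the brightest negative control probe of that array (7.41).

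In heart more members crossed the detection limit than changed above it, at shares near those of all probes. In control heart alone 146 members were detected (12.1%, against 13.7% of all probes), and in HF heart alone 13 (1.08%, against 1.45%). The lowest level detected for any probe was 3.56 in control and 4.72 in HF heart, so 93 of those 146 allow no fold at all, and 9 have a bound of at least 2-fold (6.16%, against 4.83% of such probes over the whole array). AW113776 was at least 5.11-fold lower in HF heart and AK171860 at least 3.18-fold lower, each bound taken from the lowest detected level of HF heart or the spot's own, whichever was higher. DV052421 went the other way, from not above background in control heart to 9.64 in HF heart, at least 67.7-fold higher, and was not above background on any blood array. CF622370 was at least 11.2-fold higher, at 7.05 in HF heart. All 13 had a bound of at least 2-fold, as did 100% of such probes over the whole array, because the limit in control heart was the lower one.

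Whole blood had larger changes in both directions. CF742613 (mm9 chr3:135397682-135398677, minus strand) went from 8.19 in control to 14.44 in HF whole blood, 75.6-fold higher with a spot error of 0.21 log2 units, and from 7.72 to 12.27 in plasma, while the hearts were at 8.72 and 8.22. AI551087 (6.14 to 10.74) and CJ083178 (8.08 to 11.76) also rose in plasma, from 6.76 to 12.61 and from 9.87 to 12.93. The other two large rises did not extend to plasma.

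AV464199 (mm9 chr3:133208061-133248017, plus strand) went from 6.65 to 12.25 in whole blood, 48.7-fold, but from 6.70 in control plasma to not above background in HF plasma. AV319250 went from 7.64 to 11.20 in whole blood and from 7.49 to not above background in plasma. AV319250 is also the member among these with a high heart level, 15 in control and 14.47 in HF heart, and it is among the 27 that passed the heart and plasma contrast.

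Among the 5 largest falls in whole blood, 3 were in members not above background in HF plasma. BB710262 (mm9 chr16:85287513-85553172, minus strand) went from 10.86 to 6.43, 21.6-fold lower, and from 10.75 to not above background in plasma. AK147159 went from 10.49 to 6.96 and D89677 from 11.18 to 7.53 in whole blood, and both were not above background in HF plasma after 9.94 and 11.48 in control. In heart these 3 had, in the order control and HF, 7.99 and 8.63 for BB710262, 9.37 and 9.93 for AK147159, and 9.64 and 10.47 for D89677.

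CA555664 and AV491747 fell in whole blood without being lost from HF plasma. CA555664 had 9.28 and 5.47 in whole blood and 8.11 and 8.50 in plasma, each in the order control and HF. AV491747 had 11.30 and 7.48 in whole blood, 11.79 and 10.26 in plasma, and 8.28 and 6.45 in heart, and was lower in HF in each tissue.

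Beyond these, and with outlier spots left out, 98 members were detected in HF whole blood alone (8.11%, against 8.94% of all probes) and 45 in control whole blood alone (3.72%, against 4.99%). Bounds of at least 2-fold were reached by 34 of the 98 (34.7%, against 30.2% of such probes over the whole array) and by 34 of the 45 lower ones (75.6%, against 66.6%). CF533449, on the X chromosome, was raised at least 12.8-fold, to 9.45 in HF whole blood, and stood at 8.71 in HF plasma after no signal above background in either control blood. AK012771 was at least 16.3-fold higher, at 9.80. In the other direction DT928616, at 9.44 in control whole blood, was at least 19-fold lower, and AK076889, at 8.62, at least 10.7-fold lower.

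Cell type markers moved in the same whole blood arrays. Of 8 cardiomyocyte genes 5 had a probe named here. All 5 were detected in HF whole blood and 2 of the 5 in control whole blood, with a mean log2 level over the genes of 5.99 in control and 13.01 in HF. Nppa and Tnni3, the atrial peptide and cardiac troponin I, were not above background in control whole blood and at 15.52 and 12.31 in HF whole blood, and not above background in either plasma. The probe named Myh6 went against its label, at 10.88 and 10.68 in heart and 14.48 and 14.71 in whole blood.

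The 4 of 5 neutrophil genes with a probe averaged 6.11 in control and 12.36 in HF whole blood, 5.29 and 9.27 in heart, and 6.51 and 10.55 in plasma. The part of these shifts in the members' changes was not tested. Liver and eye markers, 3 genes each, had no probe named here.

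The 53 heart-preferring members moved in HF whole blood as well. Of the 27 detected in both whole blood samples, 11 (40.7%) were at least 2-fold higher in HF and 1 (3.70%) lower, with a median log2 change of 0.63. A further 7 were detected in HF whole blood alone and 0 in control whole blood alone. In plasma the same 53 went the other way: of 20 detected in both, 3 (15%) were higher and 13 (65%) lower, 11 were seen in control plasma alone and 0 in HF plasma alone. Over all 6904 heart-preferring probes the shares were 28.3% higher and 8.84% lower in whole blood, and 8.85% higher and 50.4% lower in plasma. Of these probes 1238 were detected in HF whole blood alone and 90 in control whole blood alone. In plasma 1588 were detected in control alone and 129 in HF alone. The directions in the members were thus those of heart-preferring probes at large.

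Heart-detected members with no signal above background in either control blood sample numbered 45. HF whole blood detected 12 of them (26.7%) and HF plasma 10 (22.2%), against 19.7% and 14.3% of such probes over the whole array. The rule asks for no signal in control blood, so HF blood could only gain, and the reverse count was not made. The lowest level detected for any probe was 5.78 in control and 5.19 in HF whole blood. BC025881, one of the 12, was at 5.57 in HF whole blood, below the control limit, so it shows no rise. AA432627, another of the 27 members that passed the heart and plasma contrast and named here after its values were seen, had 10.89 and 9.92 in control and HF heart, 6.67 in HF whole blood, and was not above background on the other 3 arrays.

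Plasma changes were the widest of the 3 tissues. BY365123 (mm9 chr1:120669425-120669893, plus strand) went from 5.34 in control to 14.43 in HF plasma, a 545-fold difference with a spot error of 0.31 log2 units. It was at 5.39 in HF whole blood and not above background on the other 3 arrays. BC128340 (mm9 chr17:88505117-88714090, plus strand) went from 8.22 to 17.02 in plasma, 447-fold, against 7.87 and 10.32 in control and HF whole blood and 7.09 and 6.63 in heart.

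CR515255 rose from 5.95 to 14.44 in plasma, AK142793 from 9.31 to 15.94 and CA979239 from 8.63 to 15.25. In whole blood AK142793 moved too, from 8.86 to 12.37, whereas CA979239 had 8.30 and 8.55. None of these 5 was at more than 7.09 in either heart. The HF plasma array is the one with 12.4% of negative control spots marked as signal, and the highest negative control probe there had a level of 7.41. All 5 rises end well above that level.

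All 5 of the largest falls in plasma were in members with levels above 11 in control plasma. AV038163 had 17.53 and 16.83 in control and HF heart, 18.55 and 17.38 in control and HF whole blood, and 18.01 in control against 11.77 in HF plasma, 75.7-fold lower with a spot error of 0.20 log2 units. BQ550698 had 12 and 10.92 in heart, 16.83 and 16.63 in whole blood, and 16.90 and 10.75 in plasma. For AV038163 HF plasma alone was low, and BQ550698 was low in both hearts and HF plasma.

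BY419828 (mm9 chr9:61321043-61321223, plus strand) went from 11.92 to 5.85 in plasma, CA885545 from 11.64 to 5.99 and AV311340 from 11.11 to 5.50. BY419828 was also lower in HF heart (12.65 and 11.44) and HF whole blood (11.74 and 10.02). The HF plasma levels of these 3 are below that of the brightest negative control probe of this array. CA885545 had little signal in heart (4.84 and 5.19) and 12.30 and 11.36 in whole blood.

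**Figure D4:**
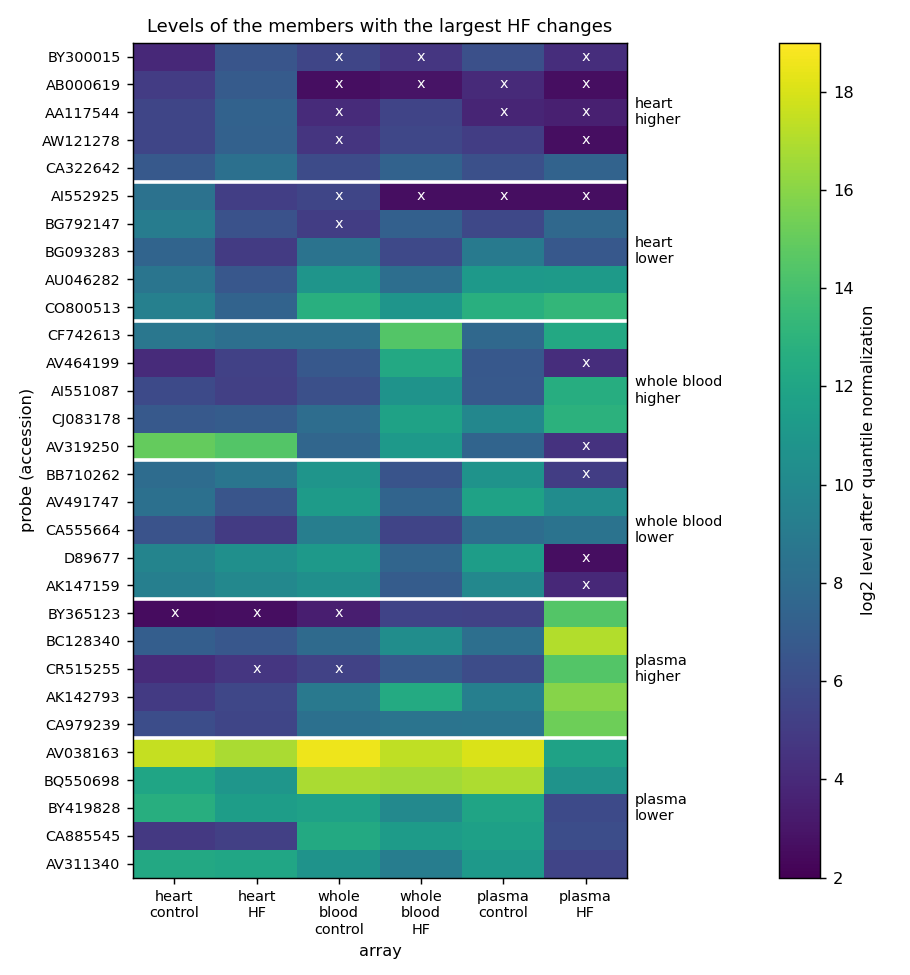
Log2 level after quantile normalization (colour) of the 5 largest rises and 5 largest falls in heart, whole blood and plasma (rows) on the 6 arrays (columns). A white x marks a spot not above background. The 5 plasma falls were low in HF plasma alone among the blood arrays, with BY419828 going from 11.92 to 5.85.

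With outlier spots left out, 85 members were detected in HF plasma alone (7.03%, against 7.70% of all probes) and 89 in control plasma alone (7.36%, against 12.4%). Bounds of at least 2-fold came to 71 of 85 higher (83.5%, against 84% of such probes over the whole array) and 30 of 89 lower (33.7%, against 40.4%). AI561687 (mm9 chr2:56799308-56799551, plus strand), at 14.61 in HF plasma, was at least 886-fold higher than the limit in control plasma, and BI853964, at 14.22, at least 742-fold higher. AI561687 was also detected in HF whole blood, at 5.36, and BI853964 on no other array. AK038804 (mm9 chr11:16871467-16952384, minus strand) was at least 125-fold lower, from 12.34 in control plasma, and D89677 at least 69.1-fold lower.

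Plasma changes were also set beside the brightness of a member elsewhere. The 236 members detected in both plasma samples were split into 3 groups of like size by their mean log2 level on the 4 arrays of heart and whole blood, a division chosen after these values were seen. In the dimmest group 36 of 79 (45.6%) rose at least 2-fold in HF plasma and 3 (3.80%) fell, with a median log2 change of 0.86. The middle group had 28 of 78 higher and 15 lower. In the brightest group 21 of 79 (26.6%) were higher and 41 (51.9%) lower, with a median of -1.13. All probes had the same order, with 40.8% higher and 7.47% lower in the lowest range and 23.1% higher and 44.7% lower in the highest. The detection filter shapes the dimmest group, since a dim member that falls tends to leave it: at those levels another 64 members were detected in control plasma alone and 82 in HF plasma alone, against 12 and 0 at the levels of the brightest group.

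Prefix AV is singled out here, for its falls in plasma, from the 22 prefixes with at least 20 members. Of its 19 members detected in both plasma samples, 13 were at least 2-fold lower in HF and 1 higher, and 14 of the 19 were in the brightest group. Over all probes 25.6% were lower and 32.1% higher in plasma, and 44.7% and 23.1% in the highest range of level. The median of the 19 AV members went from 10.30 in control to 8.28 in HF plasma, with changes from -6.24 to 1.19. AV125227, for example, had 14.23 and 14.43 in heart, 14.60 and 13.79 in whole blood, and 14.78 and 9.87 in plasma. AV116296 had 12.80 and 13.01 in heart, 12.72 and 11.18 in whole blood, and 12.82 and 8.55 in plasma. AV588426 was the one that rose, from 6.22 to 7.40, just below the brightest negative control probe of HF plasma (7.41). These 3 were named after their values were seen. Prefixes BB and BY of the same collection had 6 higher and 7 lower of 18 members, and 12 higher and 6 lower of 26.

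**Figure D5:**
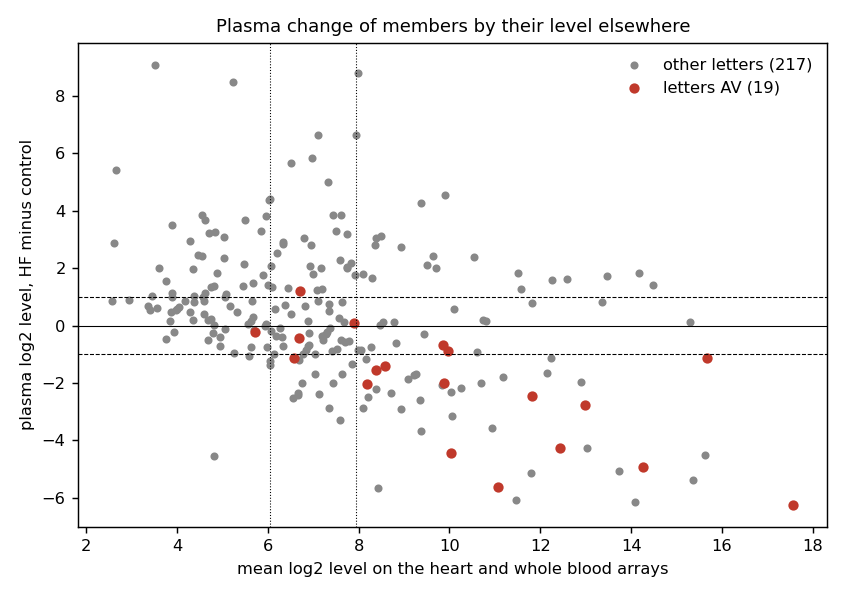
Plasma log2 difference, HF minus control (y axis), of the 236 members detected in both plasma samples against their mean log2 level on the 4 heart and whole blood arrays (x axis), with the 19 members of prefix AV in red. Dotted lines are the limits of the 3 groups at 6.04 and 7.94, dashed lines are 2-fold. The brightest group holds 41 of the 59 members that were lower in HF plasma.

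Red cell and platelet genes changed on the same plasma arrays. Hbb-b1, a β-globin, had 17.58 in control and 7.70 in HF plasma, and Hba-a1, an α-globin, 17.53 and 13.49, while both were above 17.3 in both whole blood samples. The 3 of 5 erythroid genes with a probe averaged 16.06 in control and 8.07 in HF plasma, the 2 of 5 platelet genes 10.94 and 6.57, and the 4 neutrophil genes 6.51 and 10.55. Over the 553 members detected anywhere, control plasma ranked members much like control whole blood (Spearman rho 0.90), while HF plasma had rho between 0.32 and 0.54 with the other 5 arrays. These are correlations across probes, which are not independent replicates. The part of the blood cell genes in the members' plasma changes was not tested.

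When only members also above the 99th percentile of the negative control spots were counted, plasma had 56 higher and 19 lower. Among the 129 members detected on all 6 arrays, it had 40 higher and 49 lower. Higher members thus outnumbered lower ones in the first count and not in the second. The first filter left 147 of 330 detected members in HF plasma and 263 of 330 in control plasma. It therefore takes out falls more readily than rises, and its direction is not a result about the members. Neither count was made over all probes.

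Across tissues, the 151 members detected on both arrays of heart and of plasma had opposite signs in 62.3%, against 58.6% of all such probes, with a Spearman rho of -0.31 across members and -0.25 across all such probes. Of 30 that changed at least 2-fold in both, 15 (50%) were lower in heart and higher in plasma, 4 (13.3%) were the reverse, 10 (33.3%) were lower in both and 1 was higher in both. Over all 1326 such probes these shares were 55.9%, 16.7%, 15.8% and 11.5%. Heart and whole blood had a rho of 0.22 over 157 members (0.20 over all such probes), and 20 of 28 that changed in both (71.4%, against 59.6%) were lower in both. Whole blood and plasma had a rho of 0.26 over 157 members (0.06 over all such probes). Of 53 that changed in both, 22 were higher in both (41.5%, against 28.1%) and 16 lower in both (30.2%, against 27.8%). The other 15 were opposite: 17.0% higher in whole blood and lower in plasma (against 23.4%) and 11.3% the reverse (against 20.7%). The arrays of the 3 tissues are different, but all share 1 quantile normalization.

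Members lower in HF heart and higher in HF plasma include BI986622, which had 7.60 and 5.94 in heart, 8.56 and 7.87 in whole blood, and 8.45 and 11.74 in plasma. BY211075 had 9.75 and 8.29 in heart, 8.88 and 8.77 in whole blood, and 9.40 and 12.12 in plasma. The whole blood difference was -0.69 log2 units in BI986622 and -0.11 in BY211075. DV074327 had 8.36 and 6.80 in heart, 7.26 and 8.55 in whole blood, and 8.15 and 11.34 in plasma, and CO433172 had 13.01 and 11.55, 14.05 and 15.26, and 14.12 and 15.86 in the same order. These last members rose in both kinds of blood sample.

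Of the 129 members detected on all 6 arrays, 16 changed in no tissue, 49 in 1, 50 in 2 and 14 in 3. All 3 changes were downward in 6 members and upward in 1, CA322642. These counts were not made over all probes, so they cannot be called particular to the members. The downward ones include BU939086, with 6.73 and 5.14 in heart, 9.05 and 6.11 in whole blood, and 9.23 and 7.25 in plasma, and AV310809, with 11.13 and 9.99, 10.59 and 8.47, and 10.10 and 5.68. In BG093283 the 3 log2 changes were of like size, -2.51 in heart, -2.70 in whole blood and -2.34 in plasma. Its HF levels were dim, and with the normexp correction its heart change was -1.08. The HF plasma levels of CA322642, BG093283, BU939086 and AV310809 all lie below the brightest negative control probe of that array (7.41).

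A change shared by the tissues was tested as the condition term of the linear model, 3 HF against 3 control arrays. Of the 553 members 0 passed an adjusted p of 0.05 by limma, and the smallest adjusted p was 0.80, also over all probes. An unadjusted p under 0.05 was found for 24 members (4.34%), near the 4.49% of all probes. The 5 members first in that order were CF533449, BG093283, AK012771, AK142793 and AK038804. Of these, BG093283 (-2.52 ± 0.76 log2 units, SE) and AK142793 (3.62 ± 1.18) were detected on all 6 arrays. CF533449, AK012771 and AK038804 were not above background on at least 1 blood array, so their place in the order rests in part on background levels. In AK012771 and AK142793 the heart difference was small, at 0.56 and 0.72 log2 units.

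Among members detected on all 6 arrays, the brightest by mean level were AV038163, AK198651, AV131371, BY652007 and CR514518. This is an order of spots and not of transcript amounts. It leaves out members with an outlier flag, such as AK216629, flagged in control whole blood at a level of 15.66. AK198651 resembled AV038163, with 14.58 and 14.87 in heart, 15.92 and 16.12 in whole blood, and 16.18 and 10.82 in plasma. BY652007 and AV131371 were brighter in heart: 16.65 and 16.87 against 12.83 to 14.80 in blood for BY652007, and 16.73 and 17.24 against 12.63 to 15.02 for AV131371. Both had their highest blood level in HF whole blood. CR514518 had 14.22 and 13.13 in heart, 14.96 and 15.62 in whole blood, and 15.01 and 16.43 in plasma.

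Some members lie on the same piece of genome. Among the 208 with a position, 6 pairs overlap, 5 of them on opposite strands. All 208 come from the study's lists of LncRNAs changed in HF on these arrays. Differences between HF and control in these pairs are therefore built into the choice. BB710262 and AK187245 both overlap CF545861 on the opposite strand. In whole blood, where BB710262 fell, AK187245 was at 6.64 and 6.31 in control and HF and CF545861 went from not above background to 6.43. The same-strand pair AK162394 and BB584672 had opposite patterns: AK162394 was seen in control whole blood (7.0) and control plasma (6.84) alone, and BB584672 in HF plasma (9.51) alone. The study's list of changed heart LncRNAs with an overlapping protein-coding gene holds 11 of the 208, 10 in sense and CB233722 antisense to Agrp. That list covers heart only, so overlap with genes is not known here for members listed for blood or plasma alone.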

How the data were processed

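Scanner files of 6 Agilent 1-colour arrays were used. The authors deposited, per the file headers, spot intensity values (background-subtracted and spatially detrended by Agilent Feature Extraction 11.0.1.1; array grid on mm9), with no normalization between arrays. From these, log2 intensity of non-control spots was averaged per probe and quantile normalized over the 6 arrays (limma 3.58.1, R 4.3.3), as the study's methods do with their own software. A spot marked as an outlier was left out of a probe's mean where the probe had other spots. A probe with outlier spots only, as for any flagged member, was not counted as detected on that array. Its level was still kept in the normalization, the preference rule and the linear model. A change was called at 2-fold in members detected on both arrays. limma's linear model (lmFit, eBayes) had 2 residual and 5.13 prior degrees of freedom. The scripts were tested on simulated data.

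The rule for members uses probe names alone, but this class of probes, the gene lists and the rules for naming were chosen with earlier results of these data known. Named were the 5 largest rises and falls per tissue, the 2 largest bounds per direction, the 5 widest preferences, the 5 brightest, up to 5 of each pattern over tissues, and the 5 first by the shared HF term. Positions of 208 members come from the study's lists of changed LncRNAs, with starts counted from 1. Those lists state no genome build, and mm9 was inferred, mainly from the array grid. Of the 1209 accessions 0 matched the RefSeq tables. Markers were named through the mRNA list of the study as held here. The number of arrays limits the precision. Alternatives were other scalings and backgrounds, detection rules, thresholds, and leaving out arrays.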

Additional observations from a re-analysis of the deposited data

Results flagged for a closer look

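Members with at least 2-fold changes in opposite directions in 2 tissues, among the members named in the text, are listed with their log2 HF minus control values. None of these differences between tissues was tested, since each tissue has 1 array per condition. AK040636 had -2.67 in whole blood and 4.27 in plasma, and AV131371 had 1.31 in whole blood and -1.12 in plasma. In heart and plasma the values were -2.89 and 2.08 for BG792147, -1.66 and 3.29 for BI986622, -1.46 and 2.73 for BY211075, and -1.09 and 1.42 for CR514518. CO433172 had -1.46 in heart, 1.20 in whole blood and 1.74 in plasma. DV074327 had -1.56 in heart, 1.29 in whole blood and 3.19 in plasma. The heart arrays were scanned together, while in blood the control arrays were scanned apart from the HF arrays.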

How the results depend on the processing

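Counts of members higher and lower in HF moved with how dim spots were handled. Without a detection filter they were 60 and 96 in heart, 215 and 220 in whole blood, and 261 and 181 in plasma. With the weaker detection flag they were 47 and 71, 95 and 114, and 174 and 107, and the members detected rose to 689 and 481 in control and HF heart, 510 and 571 in whole blood, and 648 and 645 in plasma. With normexp, heart had 3 and 26, where all probes had 1024 and 1299. At 1.5-fold heart had 48 and 82. At 4-fold the counts were 1 and 4 in heart, 23 and 23 in whole blood, and 51 and 36 in plasma. Among members detected on all 6 arrays, 4 and 33 were higher and lower in heart, 30 and 35 in whole blood, and 40 and 49 in plasma. Above the negative controls, a rule chosen after seeing the data, plasma had 56 and 19, and 147 members were detected in HF plasma. That rule removes members dim in HF plasma, and so falls more readily than rises.

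Preference counts under normexp were 1 for whole blood, 1 for plasma and 27 for blood. At a 4-fold margin they were 33 for heart, 1 for whole blood, 3 for plasma and 20 for blood. Without the HF plasma array 17 preferred plasma, and without control whole blood 59 preferred whole blood and 50 plasma, both chosen after seeing the data.

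limma called 45 members for heart against whole blood and 97 for heart against plasma with 75th percentile scaling, and 21 and 54 among probes detected on all 6 arrays. Heart against plasma gave 0 with normexp, 0 without the detection filter and 0 with the scan as a block. Leaving out each array in turn gave 0 to 63 for heart against whole blood and 0 to 168 for heart against plasma. Each such fit leaves 1 tissue with 1 array, which is assumed to vary like the others. The causes were not tested. Of the 30 named changes none turned sign under another scaling or background correction, but folds moved. Under normexp the log2 change of AI552925 in heart was -1.93, that of BG093283 in heart -1.08 and that of BY365123 in plasma 7.61. With 75th percentile scaling CF742613 in whole blood had 5.27 and AV038163 in plasma -7.78. No paired analysis was possible because each condition has 1 array and the labels carry no replicate numbers. With 1 array per condition, no difference between HF and control within a tissue has a replicate check.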
